A study of Mus musculus with 10 samples.

Results

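The complement regulators and receptors measured in 3 regions of the mouse heart were 9 genes, the regulators Cfi, Cd46, Cd55, Cd59a and Cr1l, and the receptors C3ar1, C5ar1, C5ar2 and Vsig4. The members were every probe whose RefSeq accession maps to one of these symbols, which gave 14 probes for 9 genes among 22911 named genes on the array. Total RNA came from hearts of C57BL/6N mice that were divided into right ventricle (RV, 4 arrays), left ventricle (LV, 3 arrays) and ventricular septum (3 arrays). The labels name no surgery, transgene, treatment or age for any of them, and each sample was hybridised alone, in 1 colour, to an Agilent whole-genome array. Whether the samples with the same replicate number came from 1 heart is not stated, and p-values here measure the spread between these 10 arrays.

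Complement is a cascade of plasma proteins that marks surfaces for removal. Its activation cleaves C3 and C5, which releases the small peptides C3a and C5a and deposits C3b on the surface. Regulators stop the cascade on the body's own cells. Cd55 dissociates the enzyme complexes that cleave C3, Cd46 and Cr1l are cofactors for the destruction of C3b and C4b, Cfi is the protease that carries out this destruction, and Cd59a blocks assembly of the membrane attack complex. C3ar1 and C5ar1 are G protein-coupled receptors for C3a and C5a, C5ar2 is a second C5a receptor that does not couple to G proteins, and Vsig4 is a macrophage receptor for C3b. In rodents Cr1l, also called Crry, takes over much of the role that Cd46 has in other mammals, and Cd46 itself is largely found in the testis.

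C5ar2 was the member whose level passed the test between regions, and it lies directly beside its sister receptor gene C5ar1 on chromosome 7, so the start regions of this pair are shown. Each sequence covers 300 bases around an annotated start, is taken from RefSeq (build GRCm38.p6, minus strand) and is written 5′ to 3′. The first C5ar2 start region is chr7:16244105-16244404, the second is chr7:16242282-16242581, and that of C5ar1 is chr7:16259289-16259588. Capitals mark matches to the C/EBP motif TTGCNNAA, which was searched on both strands.
C5ar2, first start: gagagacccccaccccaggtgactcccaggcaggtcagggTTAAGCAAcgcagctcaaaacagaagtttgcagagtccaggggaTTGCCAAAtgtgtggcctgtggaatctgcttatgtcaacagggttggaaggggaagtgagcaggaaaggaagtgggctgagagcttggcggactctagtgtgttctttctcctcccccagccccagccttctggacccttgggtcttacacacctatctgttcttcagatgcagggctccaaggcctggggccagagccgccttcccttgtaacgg
C5ar2, second start: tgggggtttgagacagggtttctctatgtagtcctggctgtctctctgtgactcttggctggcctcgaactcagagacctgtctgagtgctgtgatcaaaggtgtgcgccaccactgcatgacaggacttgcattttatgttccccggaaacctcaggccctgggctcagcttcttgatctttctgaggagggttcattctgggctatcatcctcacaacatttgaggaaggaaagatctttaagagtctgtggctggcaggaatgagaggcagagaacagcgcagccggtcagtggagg
C5ar1: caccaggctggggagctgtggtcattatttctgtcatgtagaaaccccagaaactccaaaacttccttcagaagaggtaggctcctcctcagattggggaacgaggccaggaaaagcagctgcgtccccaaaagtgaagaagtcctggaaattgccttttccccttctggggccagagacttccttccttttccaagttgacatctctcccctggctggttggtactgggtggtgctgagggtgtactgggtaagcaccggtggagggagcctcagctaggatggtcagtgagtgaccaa
The first C5ar2 start region held 2 matches, and the other pair of sequences held none. Over all 32851 mouse promoters of this length, 10.8% held at least 1 match to the motif. The searches for the PU.1 motif GAGGAAGT (3.2% of all promoters), the TATA box TATAAA (13.6%) and the GC box GGGCGG (35.7%) found no match in these 3 regions, on either strand. Among the 9 start regions found for 8 of the 9 genes, Cd55 held 2 GC boxes and C3ar1 held 1 TATA box and 1 GC box. Cd46, Cr1l, Cd59a and Vsig4 held no match to any of the motifs, and no sequence was printed for Cfi. A match describes letters in the window and does not show that a factor binds there.

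The arrays were of similar quality, with 53.7% to 64.0% of spots well above background and no saturated spot. They had been run on 2 slides, with replicates 1 and 2 of every region on slide 1 and the remaining 4 arrays on slide 2, so that each slide held all regions. Array pairs correlated between 0.983 and 0.997 over 27226 probes, and deviations from the region means went together within a slide and a replicate number. Cardiomyocyte markers were well above background on all arrays (6 of 6). Every level below is a log2 signal with the array's own 75th percentile set to 0, and levels of different probes are not compared. For each gene the probe with the highest mean signal is described first.

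The 9 genes covered a wide range of signal over background. The probes of 6 genes (Cd55, Cd59a, Cr1l, C3ar1, C5ar1 and C5ar2) were well above background on all 10 arrays. Vsig4 was well above background on all 4 RV arrays, on 2 of 3 LV arrays and on 2 of 3 septum arrays. These 7 genes, with 11 probes, passed the filter, which asked for a signal well above background throughout at least 1 region, and were tested. Cfi and Cd46 did not pass it and are described by their measured values and by bounds. The panels of levels by region show all values.

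**Figure D1:**
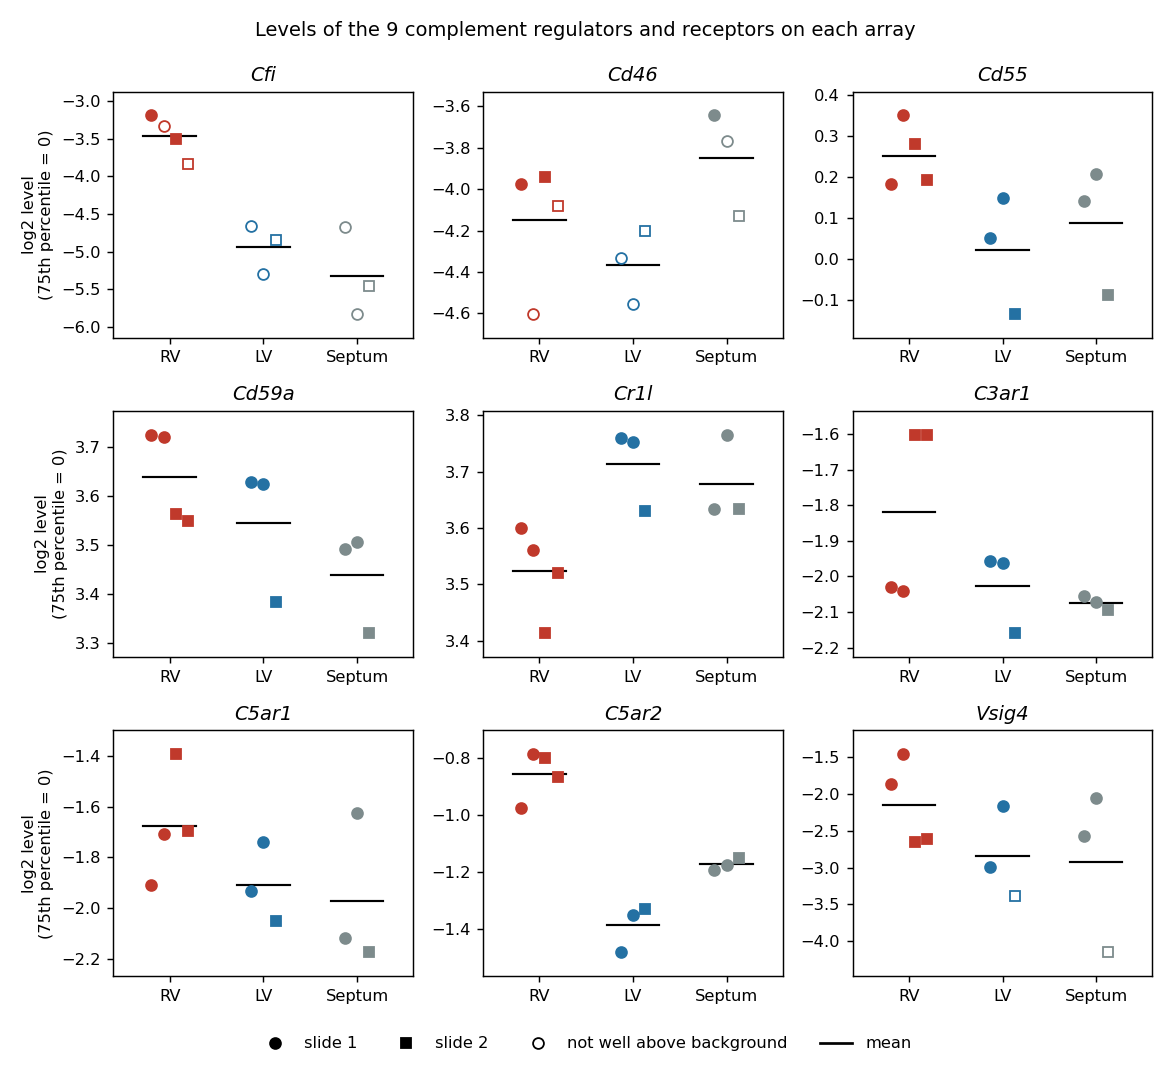
Log2 level of each gene's brightest probe on the 10 arrays (y axis, relative to the 75th percentile of the array) in RV, LV and septum (x axis). Circles are slide 1 and squares slide 2, open symbols are not well above background, lines are region means, and the C5ar2 groups are separated, with RV highest (-0.98 to -0.79), septum between (-1.19 to -1.15) and LV lowest (-1.48 to -1.33).

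C5ar2 was higher in RV than in LV. Its log2 levels were -0.98, -0.79, -0.80 and -0.87 on the RV arrays, -1.48, -1.35 and -1.33 on the LV arrays, and -1.19, -1.18 and -1.15 on the septum arrays. Every RV array was above every septum array, and every septum array was above every LV array. The RV mean was -0.86 ± 0.0861 (SD, n = 4), the LV mean -1.39 ± 0.0828 (SD, n = 3) and the septum mean -1.17 ± 0.0202 (SD, n = 3). RV exceeded LV by 0.53 on the log2 scale (SE 0.0754, 95% confidence interval 0.36 to 0.70), which is 1.44-fold, with a limma adjusted p of 0.0070 over all 30234 tested probes. In bulk tissue such as this, fewer cells of a type and less RNA per cell cannot be told apart. C5ar2 was the 1 of 7 tested members that passed the threshold of 0.05 in this comparison, where 3.86% of all tested probes passed and 2.31% passed with a higher level in RV. The difference was 0.53 on slide 1 alone and 0.50 on slide 2 alone. Slide 2 holds 1 LV array, whose spread was taken to be that of the RV arrays. With the fewer arrays of 1 slide the adjusted p was 0.0574 and 0.155, so the call was lost within each slide while the size remained. With every probe on the array kept, the adjusted p was 0.0571. Leaving out any single array left the difference between 0.48 and 0.57 with an adjusted p of 0.0124 to 0.0369.

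The C5ar2 difference between RV and septum was smaller and depended on the fit. RV exceeded septum by 0.32 (SE 0.0754, 95% confidence interval 0.15 to 0.48, 1.24-fold), with a limma adjusted p of 0.0758. In this comparison 0 of 7 tested members passed, and 2.08% of all tested probes did, 1.2% with a higher level in RV. With slide as a block the difference was 0.31 (limma adjusted p 0.0218), where 8.74% of all probes passed. Blocking on the replicate number gave 0.32 (limma adjusted p 0.0272), where 7.12% of all probes passed. RV replicate 4 has no partner in that fit and adds nothing to the difference. Septum exceeded LV by 0.21 (SE 0.0806, 95% confidence interval 0.03 to 0.40) with a limma adjusted p of 1.0. Between septum and LV none of the 7 tested members and 0 of 30234 probes passed in limma, with 862 probes at an unadjusted p below 0.05. The methods' analysis of variance, run here on the same values with Tukey's correction, called 168. Its calls needed a Tukey p per probe and an F-test p over the 3 regions, both under 0.05. Only the F-test p was adjusted over probes, a step added here. The 168 and the 0 thus stand at unlike thresholds. The test over all 3 regions gave C5ar2 an F-test adjusted p of 0.0157, where 2.78% of all probes passed. Without LV replicate 1, RV replicate 2 or RV replicate 4 that adjusted p was 0.0533, 0.0568 and 0.0556.

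The other C5a receptor, C5ar1, had no difference that passed. Its levels were -1.91, -1.71, -1.39 and -1.70 in RV, -1.93, -1.74 and -2.05 in LV, and -2.12, -1.63 and -2.18 in septum. The 3 groups overlapped, and the highest septum array lay above 3 of the 4 RV arrays. RV minus LV was 0.23 (95% confidence interval -0.13 to 0.59, limma adjusted p 0.485) and RV minus septum was 0.30 (95% confidence interval -0.07 to 0.66, limma adjusted p 0.461). These intervals hold 0 as well as differences of the size measured for C5ar2. The RV minus LV difference was 0.03 on slide 1 and 0.51 on slide 2.

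The C3a receptor C3ar1, which the study named among its RV genes from these samples, varied with slide within RV. Its levels were -2.03, -2.04, -1.60 and -1.60 in RV, -1.96, -1.96 and -2.16 in LV, and -2.06, -2.07 and -2.09 in septum. The 2 RV arrays of slide 2 stood above all other arrays, whereas the 2 RV arrays of slide 1 lay below both LV arrays of that slide. RV minus LV was 0.21 (SE 0.129, limma adjusted p 0.425) and RV minus septum was 0.26 (SE 0.129, limma adjusted p 0.423), so neither passed. Within slide 1 the difference of RV from LV was -0.07, and within slide 2 it was 0.56. The change of this difference between slides was 0.63, with an unadjusted p of 0.000519 in limma but an adjusted p of 0.158, in a test that called 22 of 30234 probes. For RV against septum the values were 0.03 within slide 1 and 0.49 within slide 2, a change of 0.46 (limma adjusted p 0.296).

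Vsig4 had the widest spread of the tested members. Its levels were -1.86, -1.46, -2.66 and -2.62 in RV, -2.99, -2.16 and -3.39 in LV, and -2.57, -2.05 and -4.16 in septum. RV arrays overlapped with the arrays of both other regions, but on each slide the RV arrays were the highest. RV minus LV was 0.70 (SE 0.515, 95% confidence interval -0.46 to 1.86, limma adjusted p 0.513) and RV minus septum was 0.78 (SE 0.515, 95% confidence interval -0.38 to 1.93, limma adjusted p 0.569). With slide as a block the differences were 0.90 (limma adjusted p 0.0512) and 0.97 (limma adjusted p 0.0599). Vsig4 entered the test through RV, and on slide 2 the difference of 1.52 from septum rests on 1 septum array that was not well above background. Without septum replicate 3 the RV minus septum difference was 0.16, and the LV array of that slide was also not well above background.

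Among the regulators on the cell surface, Cr1l was the one whose RV arrays lay below those of the other regions. Cr1l levels were 3.60, 3.56, 3.41 and 3.52 in RV, 3.76, 3.75 and 3.63 in LV, and 3.63, 3.77 and 3.63 in septum. All RV arrays were below all LV and septum arrays, and the same held for its second probe. RV minus LV was -0.19 (SE 0.0773, 95% confidence interval -0.36 to -0.02, limma adjusted p 0.213) and RV minus septum was -0.15 (SE 0.0773, limma adjusted p 0.422). The second probe gave -0.16 and -0.15. Neither difference passed, and a random block for the replicate number gave -0.19 for RV minus LV with a limma adjusted p of 0.0375, where 19.2% of all probes passed.

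Cd55, the factor that dissociates the C3-cleaving complexes, had 3 tested probes. Its brightest probe gave 0.18, 0.35, 0.28 and 0.19 in RV, 0.05, 0.15 and -0.13 in LV, and 0.14, 0.21 and -0.09 in septum. The RV arrays were all above the LV arrays and overlapped with septum. RV minus LV was 0.23 (SE 0.101, 95% confidence interval 0.00416 to 0.46, limma adjusted p 0.244) and RV minus septum was 0.16 (SE 0.101, limma adjusted p 0.524). With slide as a block the RV minus LV difference was 0.26 with a limma adjusted p of 0.0473, in a fit where 17.6% of all probes passed. The second probe had the larger values, with an RV minus LV difference of 0.46 and an RV minus septum difference of 0.50, and its limma adjusted p changed from 0.335 and 0.398 to 0.0130 and 0.0148 with slide as a block. It also passed when the replicate number was blocked, at 0.51 for RV minus LV (limma adjusted p 0.0250) and 0.55 for RV minus septum (limma adjusted p 0.0293), where 14.9% and 7.12% of all probes passed. The third probe gave 0.20 and 0.19, and its limma adjusted p was 0.0261 and 0.0448 with slide as a block. The third probe passed for RV minus LV when the replicate number was blocked (0.28, limma adjusted p 0.0349). All 3 probes had a higher mean in RV than in LV and septum. Cd55 lies next to the related gene Cd55b, and whether its probes also bind Cd55b transcripts was not tested.

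Cd59a, the inhibitor of the membrane attack complex, differed little between regions. Its levels were 3.73, 3.72, 3.56 and 3.55 in RV, 3.63, 3.63 and 3.38 in LV, and 3.49, 3.51 and 3.32 in septum. On each slide the arrays ran in the order RV, LV and septum, and all RV arrays were above all septum arrays. RV minus septum was 0.20 (SE 0.0942, 1.15-fold, limma adjusted p 0.384) and RV minus LV was 0.09 (limma adjusted p 0.646). With slide as a block RV minus septum was 0.23 (limma adjusted p 0.0171), and blocking on the replicate number gave 0.23 (limma adjusted p 0.0443). The second Cd59a probe gave -0.02 for RV minus LV and 0.14 for RV minus septum, and passed in none of these fits. Its neighbour and copy Cd59b gave -0.01 and 0.08 in the same comparisons, and whether the probes tell the copies apart was not tested.

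**Figure D2:**
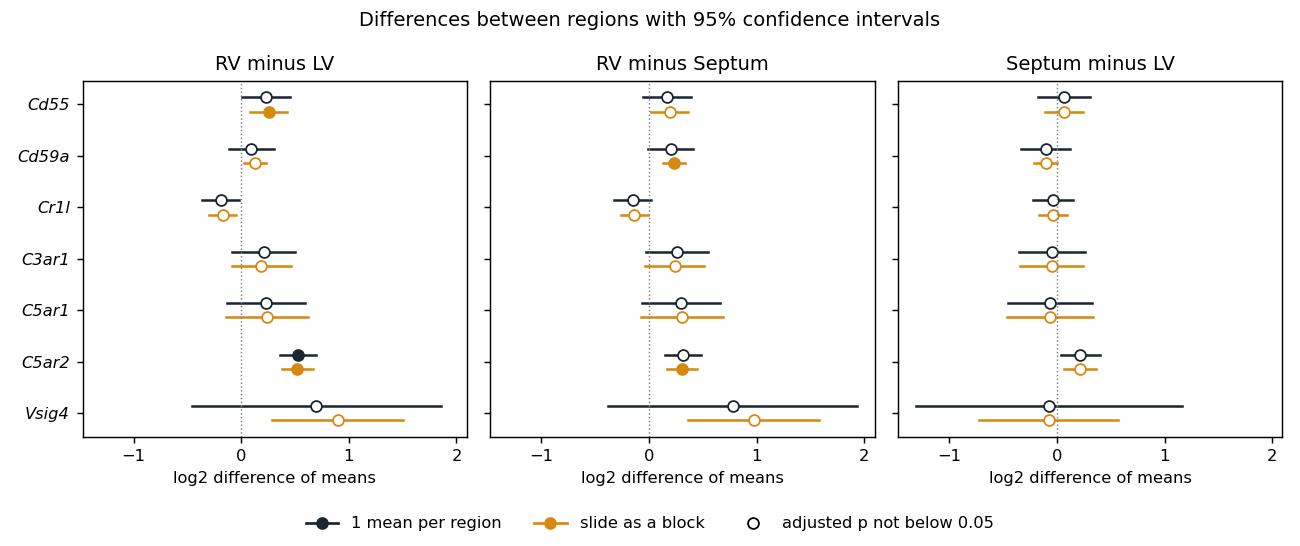
Difference of region means on the log2 scale (x axis) for the 7 tested genes, with 95% confidence intervals, from the fit with 1 mean per region (dark) and with slide added as a block (orange). Filled points passed an adjusted p of 0.05 over all tested probes, and C5ar2 in RV minus LV (0.53 and 0.52) is filled in both fits.

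Cfi and Cd46 were near the detection limit. Cfi, the protease that destroys C3b, gave -3.19, -3.33, -3.50 and -3.83 in RV, -4.66, -5.30 and -4.84 in LV, and -4.67, -5.82 and -5.46 in septum. All RV arrays were above all LV and septum arrays, but only RV replicates 1 and 3 were well above background. Against the lowest signal well above background on each array, the bounds put the RV mean of Cfi 1.23-fold above LV and 1.41-fold above septum on the processed-signal scale. These are 0.30 and 0.50 on the log2 scale. The RV mean includes replicates 2 and 4, which were not well above background, so the bounds are not strict lower limits. In a fit of every probe on the array, RV minus LV was 1.47 (SE 0.287, limma adjusted p 0.0855) and RV minus septum was 1.85 (SE 0.287, limma adjusted p 0.0583), where 0.475% and 0.198% of all probes passed. Without septum replicate 1 these adjusted p-values were 0.0498 and 0.0314. With slide as a block in this fit RV minus septum passed (1.88, limma adjusted p 0.0390), where 1.19% of all probes passed. With background modelled by normexp, which compresses low signals, the differences were 0.35 and 0.41, so that the bound against septum was not met on that scale.

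Cd46 gave -3.97, -4.60, -3.94 and -4.08 in RV, -4.33, -4.55 and -4.20 in LV, and -3.64, -3.77 and -4.13 in septum. RV replicates 1 and 3 and septum replicate 1 were well above background. The septum arrays were all above the LV arrays by this probe, with a difference of 0.52, and all below them by the second probe, with a difference of -0.46. The 2 probes of Cd46 thus gave opposite directions, neither passed in the fit of every probe, and no fold is given because each bound was under 1.

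Set side by side, 6 of the 7 tested genes had a higher mean in RV than in LV, with a median difference of 0.23, and 6 of 7 had a higher mean in RV than in septum, with a median of 0.26. Over all 14645 named genes tested, 39.4% had a higher mean in RV than in LV and 40.8% in RV than in septum, and the medians were -0.05 and -0.04. Cr1l was the exception in both comparisons, and the comparisons share the RV arrays. Vsig4, counted among the 6, entered the test through RV, so its higher RV mean is not free of the filter. The groups of arrays did not overlap for 3 of 7 genes between RV and LV (Cd55 and C5ar2 higher, Cr1l lower), for 4 of 7 between RV and septum (Cd59a, C3ar1 and C5ar2 higher, Cr1l lower) and for 1 of 7 between septum and LV (C5ar2 higher). Over all tested probes the shares without overlap were 19.1%, 13.7% and 6.98%, and the shares with the first region above the other were 8.09%, 5.85% and 3.54%.

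The rest of the complement system gives the setting of these genes. A list of 51 other complement genes was drawn up by role, of which 35 were tested. In RV against LV, 7 passed the test as higher in RV and 1 as lower, with a median difference of 0.31. In RV against septum 6 passed as higher and 1 as lower, with a median of 0.32, and in septum against LV none passed, with a median of -0.02. Over all named genes 4.98% passed in RV against LV and 2.7% in RV against septum. The genes that passed as higher include Susd4 in both RV comparisons and Itgax against LV, which entered the test through RV. The study had named Cfd, C3 and C3ar1 from these same samples, so that their values are no independent evidence of a direction. The study also measured these genes by RT-PCR in sham-operated mice and in human ventricle RNA, and reported high expression in human RV.

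Of 14 other regulators, 7 were tested. Cfhr2 was 1.01 above LV and 0.65 above septum in RV (limma adjusted p 0.0037 and 0.0261). Whether its probe also binds transcripts of related genes was not tested. Susd4, a membrane protein that restrains the C3-cleaving complexes, gave 1.11 and 1.13 (limma adjusted p 0.0206 and 0.0279), but it entered the test through RV, since 1 of 3 LV and 2 of 3 septum arrays were well above background. Clu, which binds the forming membrane attack complex, passed as lower in RV, by -0.49 against LV and -0.55 against septum (limma adjusted p 0.0082 in both). Its levels ran from 7.32 to 7.49 in RV and were at least 7.83 in the other regions.

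All 8 other receptors were tested. Itgax, the alpha chain of complement receptor CR4, gave 1.29 for RV minus LV (limma adjusted p 0.0122) and 0.53 for RV minus septum (limma adjusted p 0.289). It also entered the test through RV, with 1 of 3 LV and 2 of 3 septum arrays well above background. Itgb2, the beta chain it shares with CR3, gave 0.36 and 0.32 (limma adjusted p 0.180 and 0.336). The median difference of these receptors was 0.02 in RV against LV and 0.10 in RV against septum.

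Upstream of the regulators, all 4 genes of the alternative pathway and C3 had a higher mean in RV than in both other regions. Cfd, the protease that starts the alternative pathway, was higher than in LV by 4.78 (limma adjusted p 0.0034), and C3 was higher than in septum by 1.34 (limma adjusted p 0.0355). Cfd against septum gave 2.27 (limma adjusted p 0.0725) and C3 against LV gave 0.89 (limma adjusted p 0.0959). With slide as a block both passed, at 2.23 (limma adjusted p 0.0463) and 0.98 (limma adjusted p 0.0075), where 8.74% and 17.6% of all probes passed. Blocking on the replicate number gave C3 against LV 0.89 with a limma adjusted p of 0.0087, where 14.9% of all probes passed. In that fit Cfd against septum gave 2.16 and did not pass (limma adjusted p 0.113), while 7.12% of all probes did. Among 14 tested genes of the classical and lectin pathway, 11 had a higher mean in RV than in LV and 13 than in septum. Those that passed against LV were C1ra (0.66), C1s2 (0.46) and C4b (1.31), and those that passed against septum were C1ra, C1s2 and C2, by 0.63, 0.47 and 2.76. Of 7 terminal pathway genes 2 were tested, and neither passed. Several of these genes have near-identical copies in mouse, and whether their probes tell the copies apart was not tested.

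**Figure D3:**
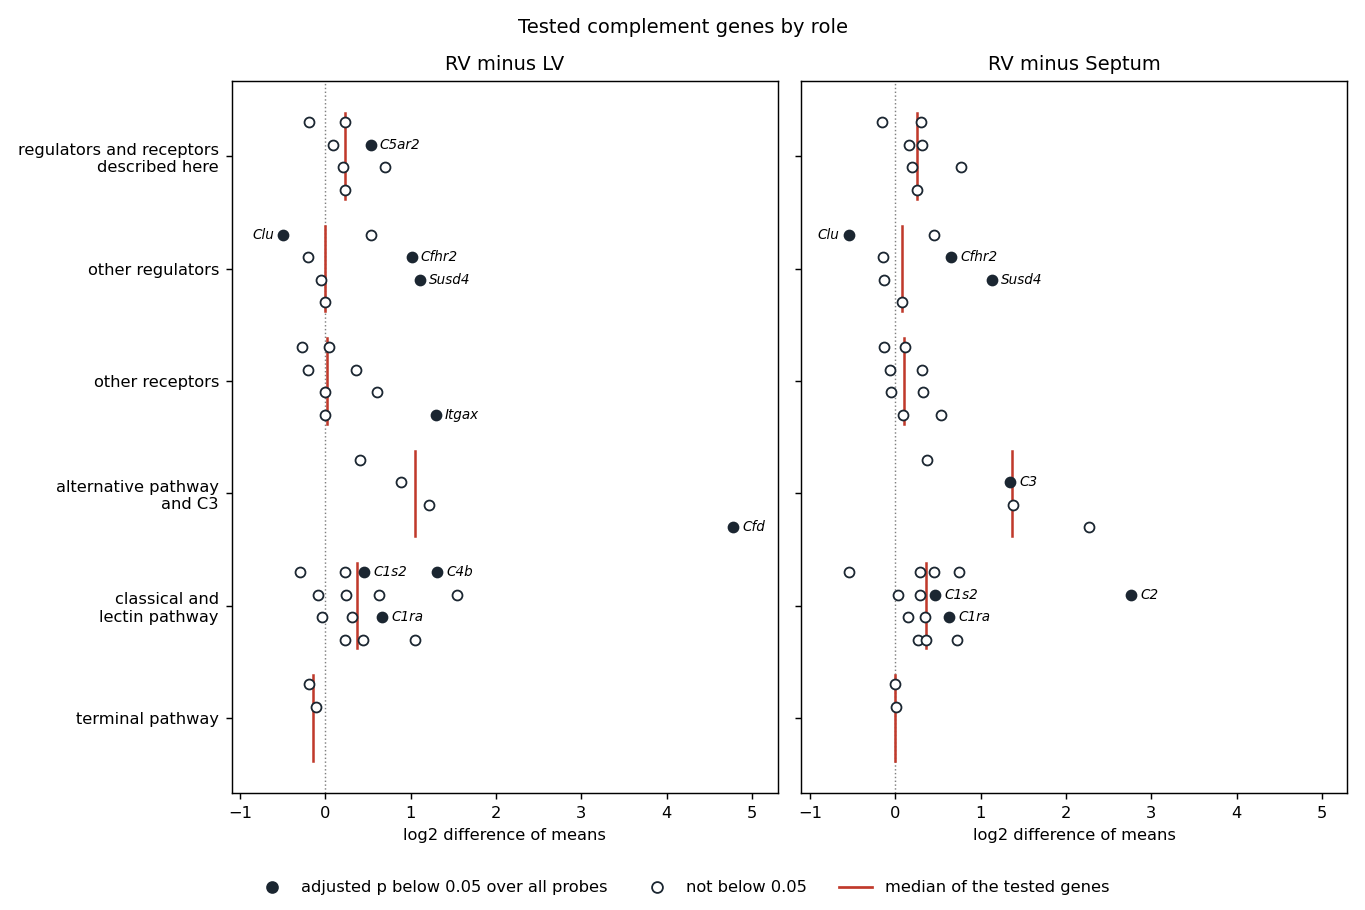
Difference of region means on the log2 scale (x axis) for each tested complement gene, grouped by role (y axis, with points spread vertically for legibility), in RV minus LV and RV minus septum. Filled points passed an adjusted p of 0.05 over all tested probes and are named, and red lines are medians, which lie at 0.23 and 0.26 for the genes described here.

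The receptors among the 9 genes are known from macrophages and other leukocytes, so the marker lists were read beside them. All 12 macrophage markers were measured on all arrays, and all 12 had a higher mean in RV in both comparisons, with a median difference of 0.32 in each and none passing the test. Their summed signal, in units of the 75th percentile, was 48.8 to 52.3 in RV, 35.3 to 42.6 in LV and 31.2 to 44.1 in septum, without overlap between RV and the others. Csf1r, the receptor for macrophage growth factor, gave 0.39 against LV and 0.42 against septum, and Ccr2, a chemokine receptor of recruited monocytes, gave 0.87 and 1.12. The macrophage markers ranged from 0.16 to 0.87 against LV and from 0.12 to 1.12 against septum, beside 0.53 and 0.32 for C5ar2. Of the neutrophil markers Cxcr2 was well above background on no array, Retnlg, Mmp8 and Mmp9 were so on some arrays, and none of 5 tested markers passed. Of these 5, 3 had a higher mean in RV than in LV and 2 than in septum. Of 6 tested lymphocyte markers 4 and 2 did, and none passed. Their summed signal overlapped, at 6.50 to 7.72 in RV, 5.80 to 9.98 in LV and 5.80 to 9.82 in septum. The 2 tested blood markers had a lower mean in RV than in LV and a higher one than in septum, and neither passed.

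Other lists also moved with RV. All 9 mesothelium markers tested had a higher mean in RV than in both other regions, and 8 passed the test against septum and 1 against LV, with a summed signal of 9.98 to 26.8 in RV, 5.26 to 8.54 in LV and 1.85 to 4.13 in septum. Of these markers 3 were well above background on all arrays. The others, Upk3b, Upk1b, Krt19, Krt8, Lrrn4 and Bnc1, were so on every RV array but not on septum replicate 3. All of these others passed against septum, and their calls are not free of the filter. Of 8 adipocyte markers 6 had a higher mean in RV than in LV and 6 than in septum, and 6 and 3 passed the test. No LV array had Adipoq or Plin1 well above background, while all RV arrays had both. Both passed against LV, and these calls are not free of the filter. Plin1 also passed against septum, where replicates 2 and 3 had 7 of the 8 markers well above background. The mean level of the 8 adipocyte markers, centred on each gene's mean over the arrays, was 1.11 to 1.64 in RV. It was -2.15 to -1.28 in LV and -0.56 to 0.64 in septum, without overlap. Their summed signal overlapped (99.3 to 125.6 in RV, 104.9 to 129.9 in LV and 97.3 to 129.2 in septum). All 6 fibroblast markers had a higher mean in RV than in both other regions, and 3 passed the test against LV and 1 against septum, with a summed signal of 343.4 to 402.3, 223.2 to 272.2 and 276.0 to 324.8. Of 4 smooth muscle markers 3 had a higher mean in RV in both comparisons, with a median difference of 1.46 against LV and 1.18 against septum, and none passed. The remaining marker, Acta2, gave -0.31 and -0.29. The summed smooth muscle signal overlapped, at 128.1 to 233.0 in RV, 122.9 to 149.3 in LV and 127.9 to 156.8 in septum. Its highest value was RV replicate 3, and the next RV array was at 169.3. None of 6 cardiomyocyte and none of 6 endothelium markers passed in any comparison. The part of these cell types in the values of C5ar2 and the other members was not tested.

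**Figure D4:**
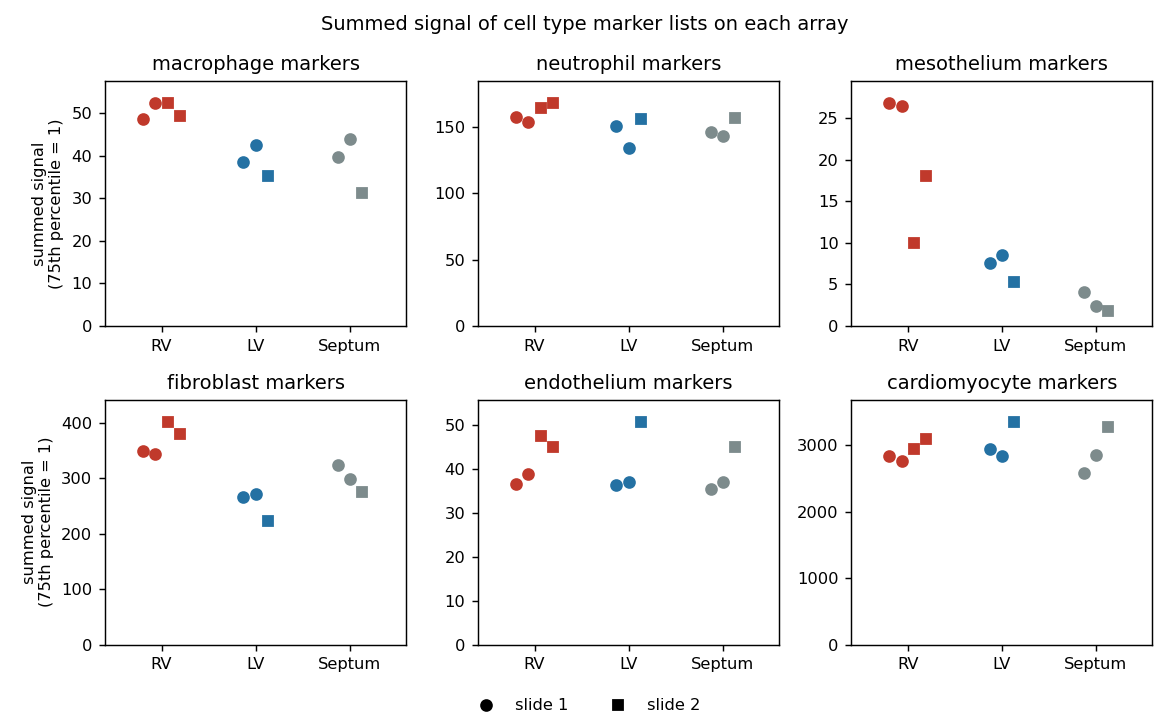
Summed signal of 6 marker lists (y axis, in units of the 75th percentile of the array, starting at 0) on each array in RV, LV and septum (x axis), with circles for slide 1 and squares for slide 2. The macrophage sum is 48.8 to 52.3 in RV and at most 44.1 in the other regions.

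For the 6 members that were well above background on all arrays, the genes whose levels followed them most closely were sought among 13632 others with the same property, over the 10 arrays with each slide's mean removed. C5ar2 was followed most closely by Tgfbr2 (Pearson r 0.98, Spearman rho 0.95), a TGF-beta receptor, and then by Trim47 and Scpep1. C3ar1 was followed by Apoc2 (r 0.96, rho 0.89), Il10ra, an interleukin receptor of leukocytes, and Sh3bp2. C5ar1 was followed by Tmem200b (r 0.97, rho 0.95), Fbxo33 and Ralgds. Among the regulators, Cd55 was followed by Enpp3 (r 0.98, rho 0.96), Ssbp4 and Hps1, Cd59a by Il17re (r 0.98, rho 0.90), Aspa and Kcnd2, and Cr1l by Phyh (r 0.99, rho 0.90), Cdk11b and Acss1. The mean of Phyh, a peroxisomal enzyme, was 6.36 in RV, 6.55 in LV and 6.52 in septum. None of the 6 was among the 3 closest genes of another of them. These are the highest values of a search over all genes, the arrays share regions and slides, and no test was made.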

How the data were processed

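Total RNA of 10 heart samples was labelled with Cy3 and hybridised to SurePrint G3 Mouse 8x60K arrays. The authors extracted spot intensity with Agilent Feature Extraction 11.5.1.1, per the labels, and deposited a table of log2 values. Once each array's median offset was removed, these lay within 0.05 of the values computed here for 100% of probes. Here, the deposited processed signal intensity was scaled to each array's 75th percentile and log2 transformed, control and outlier spots were dropped, and spots of a probe were averaged. Of 56605 probes, 30234 were tested, because all arrays of 1 region or more had them well above background. The others were left out because no region had them well above background on all its arrays, though some, such as Cfi, were so on single arrays. RefSeq gave a symbol to 58.3% of probes. One mean per region was fitted over all arrays with limma 3.58.1 in R 4.3.3, with the empirical Bayes moderated test and Benjamini-Hochberg adjustment over all tested probes, and calls were made at an adjusted p under 0.05. The script was tested on simulated data. The number of arrays limits the precision.

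Each gene was described by its brightest probe. The named genes were the 9 members whatever their result, the other complement genes that passed, and Itgb2, with the 3 genes closest to a member. Cd59b, Csf1r and Ccr2 were named after their values were seen. One gene was left out of the lists and is not reported here. The members and lists were chosen with earlier results of these data known. Bounds set a group's mean against a floor on each array of the dimmer group, the larger of the probe's signal there and the dimmest signal that was well above background. Same-numbered arrays deviated together, with correlations of 0.36 to 0.64 for 9 of 9 pairs. Arrays of another number on the same slide gave 0.09 to 0.58, which overlaps with that range. The labels do not state a shared heart. The main fit took no account of the replicate number, which was a block in alternative fits only. RV replicate 4 went with LV and septum replicate 3 at 0.57 and 0.58, more closely than RV replicate 3 did (0.43 and 0.44). Alternatives covered scaling, background correction, the filter, slide and replicate as blocks, each slide alone, the study's analysis of variance with Tukey's correction, other probes and leaving out each array. The interaction of slide and region, and the fit of slide as a block over every probe, were added after the data were seen. Normexp used the median signal, since a mean signal column was not used here.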

Additional observations from a re-analysis of the deposited data

How the results depend on the processing

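The numbers of tested members called were 1 (RV against LV), 0 (RV against septum), 0 (septum against LV) and 1 (all 3 regions). For RV against LV the count was 0 with no filter, on slide 1 alone and on slide 2 alone, 2 with slide as a block (C5ar2 and Cd55) and 3 with a random replicate block (C5ar2, Cd55 and Cr1l). For RV against septum it was 1 with scaling by probes well above background on all arrays (C5ar2), 2 with slide as a block, with a replicate block and with a random replicate block (C5ar2 and Cd59a each time), 1 on slide 2 alone (Vsig4, against 1 septum array not well above background) and 1 with Tukey's correction (C5ar2). For septum against LV it was 1 with Tukey's correction (C5ar2), whose p for a pair of regions is not adjusted over probes. For all 3 regions it was 0 with scaling by the median, with no filter and on slide 1 alone, and 2 with slide as a block (C5ar2 and Cd59a). On slide 2 alone it was 1, Vsig4 in place of C5ar2. Leaving out each array gave 1 to 1, 0 to 0, 0 to 0 and 0 to 1. The replicate block changed no other count of calls. The blocked fits also called more of all probes. In RV against LV 3.86% passed in the main fit, 17.6% with slide as a block and 19.2% with a random replicate block. In RV against septum the shares were 2.08%, 8.74% with slide as a block and 7.12% with a replicate block. A random replicate block called 3186 of 30234 probes there, and Tukey's correction called 760.

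C5ar2 stayed higher in RV than in LV in all 13 other settings (0.40 to 0.58) and was called in 10 of them. Signs turned for 11 differences: Cd46 in RV against septum (0.12 on slide 2, 0.53 by the other probe) and in septum against LV (-0.46 by the other probe), Cd55 in septum against LV (-0.040 by another probe), Cd59a in RV against LV (-0.024 by the other probe), Cr1l in septum against LV (0.0062 by quantile normalization, 0.0046 on slide 2), C3ar1 in RV against LV (-0.075 on slide 1) and in septum against LV (0.021 by normexp, 0.065 on slide 2), and Vsig4 in septum against LV (0.27 on slide 1). Leaving out 1 array turned 6 differences, all in septum against LV: Cd55 (-0.013 to 0.15), C5ar1 (-0.24 to 0.036) and Vsig4 (-0.51 to 0.54). The cause was not tested. Cfi in the fit of every probe passed for RV against septum also by quantile normalization (1.89, limma adjusted p 0.0315) and, in RV against LV and RV against septum, with a random replicate block (1.52 and 1.90). The stricter filter gave no value for Vsig4, and no filtered fit gave one for Cfi and Cd46. With 10 arrays the precision is limited, and Cfi, Cd46 and part of Vsig4 lay too near background for a level.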
